A study of Solanum lycopersicum with 12 samples.

Results

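Antioxidant and glutathione enzymes were followed in young tomato fruits that carried grape sucrose transporter genes. The set held every gene of the deposited table whose annotation names glutathione, ascorbate, superoxide dismutase, catalase, thioredoxin, peroxiredoxin or glutaredoxin, which gave 221 of 22827 genes. By annotation they fell into 50 glutathione S-transferases (GSTs), 48 thioredoxins and thioredoxin-like proteins, 29 glutaredoxins, 15 ascorbate oxidases and their homologs, and further families. These were 9 ascorbate peroxidases (APXs), 8 monodehydroascorbate and dehydroascorbate reductases (MDHARs and DHARs) and 7 glutathione peroxidases (GPXs). There were also 7 genes of superoxide dismutase (SOD) including its copper chaperone, 6 peroxiredoxins, 6 thioredoxin reductases and 4 catalases. The remaining 18 ascorbate entries were transporters, electron carriers and the probable iron/ascorbate oxidoreductases gene13152 and gene20805. The remaining 14 glutathione entries included the glyoxalases and glutathione reductase.

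The fruits were those of Micro-Tom tomato at 5 days post-anthesis (DPA), frozen whole with the developing seeds inside. The 4 groups of 3 libraries were the untransformed wild type (WT) and plants that expressed VvSUC11, VvSUC12 or VvSUC27 of Vitis vinifera from the 35S promoter, which is active in most cell types, in a vector selected on hygromycin. VvSUC11-OE and VvSUC12-OE plants were of the T1 and VvSUC27-OE plants of the T0 generation. Each genotype was sampled as a single line, so that transgene and line cannot be told apart, nor can generation and transgene in VvSUC27-OE fruits. In bulk RNA of whole fruits, fewer cells of a type and less RNA per cell cannot be told apart either.

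Plant cells dispose of reactive oxygen in linked steps. SOD turns superoxide into hydrogen peroxide, which catalase breaks down in peroxisomes and which APX, GPX and the peroxiredoxins reduce elsewhere. APX spends ascorbate, and MDHAR, DHAR and glutathione reductase return it through glutathione to its reduced form. Thioredoxins and glutaredoxins pass electrons to oxidised proteins, and GSTs join glutathione to reactive compounds or reverse such bonds. In expanding fruits ascorbate oxidase acts outside the cell, in the wall.

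The scaled counts, which are read counts that the authors had brought to a common library size, ranged in total from 20530052 to 21795363 per library, and the members took 1.18 to 1.21% of these totals. Replicates correlated at 0.9885 to 0.9912 across genes. Both fruit markers (TAGL1 and TDR4) were present in all libraries, and their summed FPKM (fragments scaled by transcript length and library size) was 124 to 132 in WT and 174 to 191 in the lines. Several marker lists differed between the groups. Values of the lines are given below in the order of their numbers. The 58 green tissue genes summed to 23770 to 25580 FPKM in WT, 21090 to 22450 in VvSUC11-OE, 17210 to 18120 in VvSUC12-OE and 21330 to 22150 in VvSUC27-OE fruits, and the 93 wound or stress genes to 1479 to 1534, 3884 to 4218, 1755 to 1805 and 2162 to 2295 FPKM in the same order. In that order the 23 genes of flower parts summed to 2029 to 2096, 2283 to 2309, 2234 to 2311 and 2082 to 2107 FPKM. The 51 genes of seed coat and embryo sac summed to 680.0 to 700.7, 499.5 to 513.4, 528.7 to 538.2 and 755.9 to 767.6 FPKM. For the 2 ripening genes the sums were 28.2 to 29.3, 64.0 to 67.6, 29.1 to 30.4 and 39.4 to 41.0 FPKM. One of them, polygalacturonase-2, had 42 to 49 scaled counts in VvSUC11-OE, 13 to 25 in VvSUC12-OE and 0 in WT and VvSUC27-OE fruits. The part of these marker lists in the results was not tested.

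The members were not evenly expressed. In WT fruits 40 of the 221 had a mean of at least 100 FPKM and 50 were under 1 FPKM, with a median of 21.6 FPKM. The highest mean over the 12 libraries was that of cytosolic APX1 (gene14275) at 1015 FPKM, followed by Cu-Zn SOD1 (gene1339) at 894 FPKM, thioredoxin peroxidase 1 (gene17475), a peroxiredoxin by function, at 716 FPKM and a dehydroascorbate reductase (gene14088) at 652 FPKM. The sum over all members was close in the 4 groups, at 14486 to 15025 FPKM in WT and 15052 to 15539 FPKM in the 9 transgenic libraries, although these ranges did not overlap.

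Each line was compared with the WT by limma on log2(scaled count + 1), and a gene was called a DEG when its Benjamini-Hochberg FDR over all tested genes was under 0.01 and its absolute log2 fold change (log2FC) was above 1. Of the members, 180, 179 and 179 passed the filter on low counts in the 3 comparisons, and 41 were tested in no comparison. In VvSUC11-OE fruits 38 members were DEGs, 19 up and 19 down, or 21.1% of those tested beside 14.7% of all genes (7.39% up and 7.33% down). VvSUC12-OE fruits had 16 member DEGs, 8 up and 8 down, which at 8.94% was near the background of 8.6% (3.31% up and 5.3% down). The 25 member DEGs of VvSUC27-OE fruits were 5 up and 20 down, 14% beside a background of 11%. The 5 up were 2 without VvSUC27-OE replicate 2 or 3, and 1 up and 11 down were left when a gene needed a mean of 50 scaled counts. Members up made up 2.79% and members down 11.2% there, against 3.8% and 7.21% of all genes. The median log2FC of the tested members was -0.05, -0.09 and -0.06 in the 3 comparisons and that of all genes -0.03, -0.01 and 0.00. Of the members tested, 8, 5 and 8 passed the filter through 1 group alone, with every library of the other group under 10 scaled counts, and 8, 4 and 8 of these were DEGs (3 up and 5 down, 1 up and 3 down, and 2 up and 6 down). Such a member could be tested only because it was high in 1 group, so its call is no support for a difference beyond its counts. All 3 comparisons share the same 3 WT libraries, so their member lists are not independent.

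**Figure D1:**
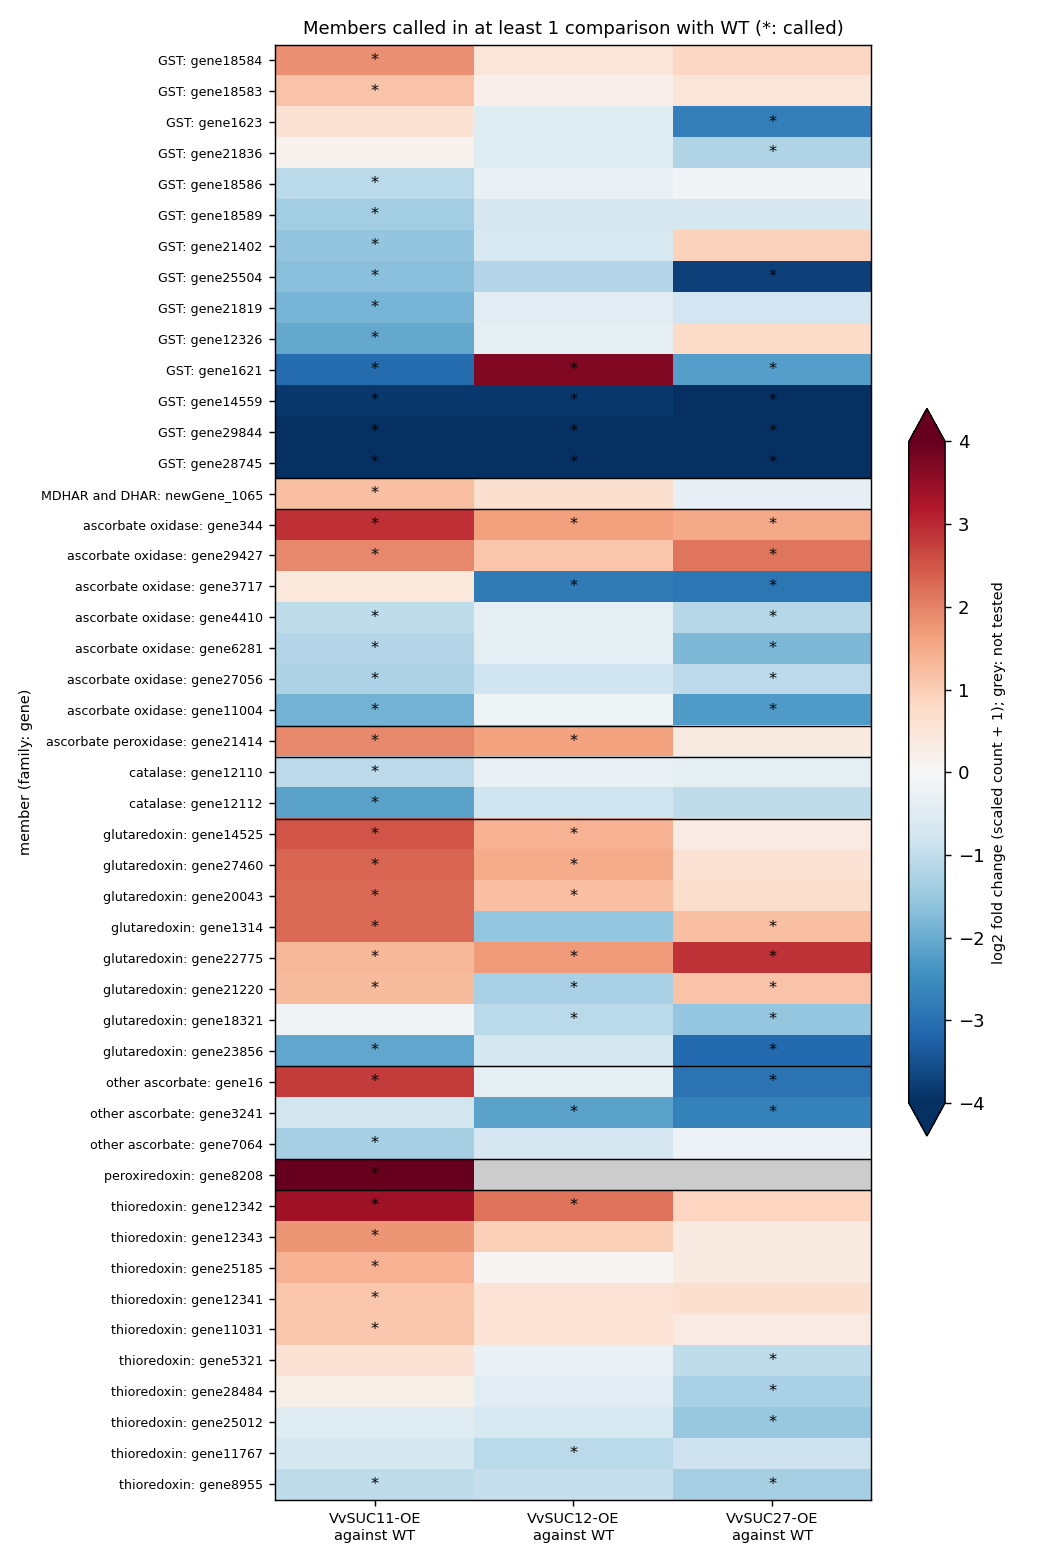
Fitted log2FC against WT (colour, limits at -4 and 4) of the 47 members that were DEGs in at least 1 line, by family, with an asterisk where the member was a DEG and grey where it was not tested. In the VvSUC27-OE column 20 of the 25 marked cells are blue, whereas the VvSUC11-OE column has 19 of each colour.

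Smaller differences were common. At an FDR under 0.01 without a fold limit, 114, 96 and 94 members differed from WT in the 3 lines, beside 52.6%, 39.5% and 44.4% of all genes. Of the 47 members that were DEGs in some line, 3 GSTs (gene28745, gene29844 and gene14559) were down in all 3 lines, while the ascorbate oxidase gene344 and the glutaredoxin gene22775 were up in all 3. The 3 GSTs passed the filter through the WT libraries alone and gene22775 through those of each line alone. Opposite directions were seen in 3 members, the GST gene1621, the glutaredoxin-domain gene21220 and the ascorbate-dependent electron transporter gene16, described below by family.

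The families moved apart in their summed FPKM, for which no test was run. APX transcripts summed to 1339 to 1428 FPKM in WT and to 1594 to 1766 FPKM in the 9 transgenic libraries. The thioredoxin sum was highest in VvSUC11-OE fruits at 3626 to 3832 FPKM, against 3021 to 3125 FPKM in WT, and ascorbate oxidase was lowest there at 315 to 322 FPKM against 469 to 475 FPKM. GPX summed to 617 to 654 FPKM in VvSUC11-OE, 748 to 776 in VvSUC12-OE, 786 to 813 in WT and 934 to 946 in VvSUC27-OE fruits, 4 ranges that did not overlap. The sums of the peroxiredoxin and thioredoxin reductase families were both highest in WT. The peroxiredoxin family as sorted leaves out gene17475, whose mean FPKM was 1.23, 1.19 and 1.0 times that of WT in the lines. The rank of WT among the peroxiredoxin sums therefore holds only without gene17475.

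**Figure D2:**
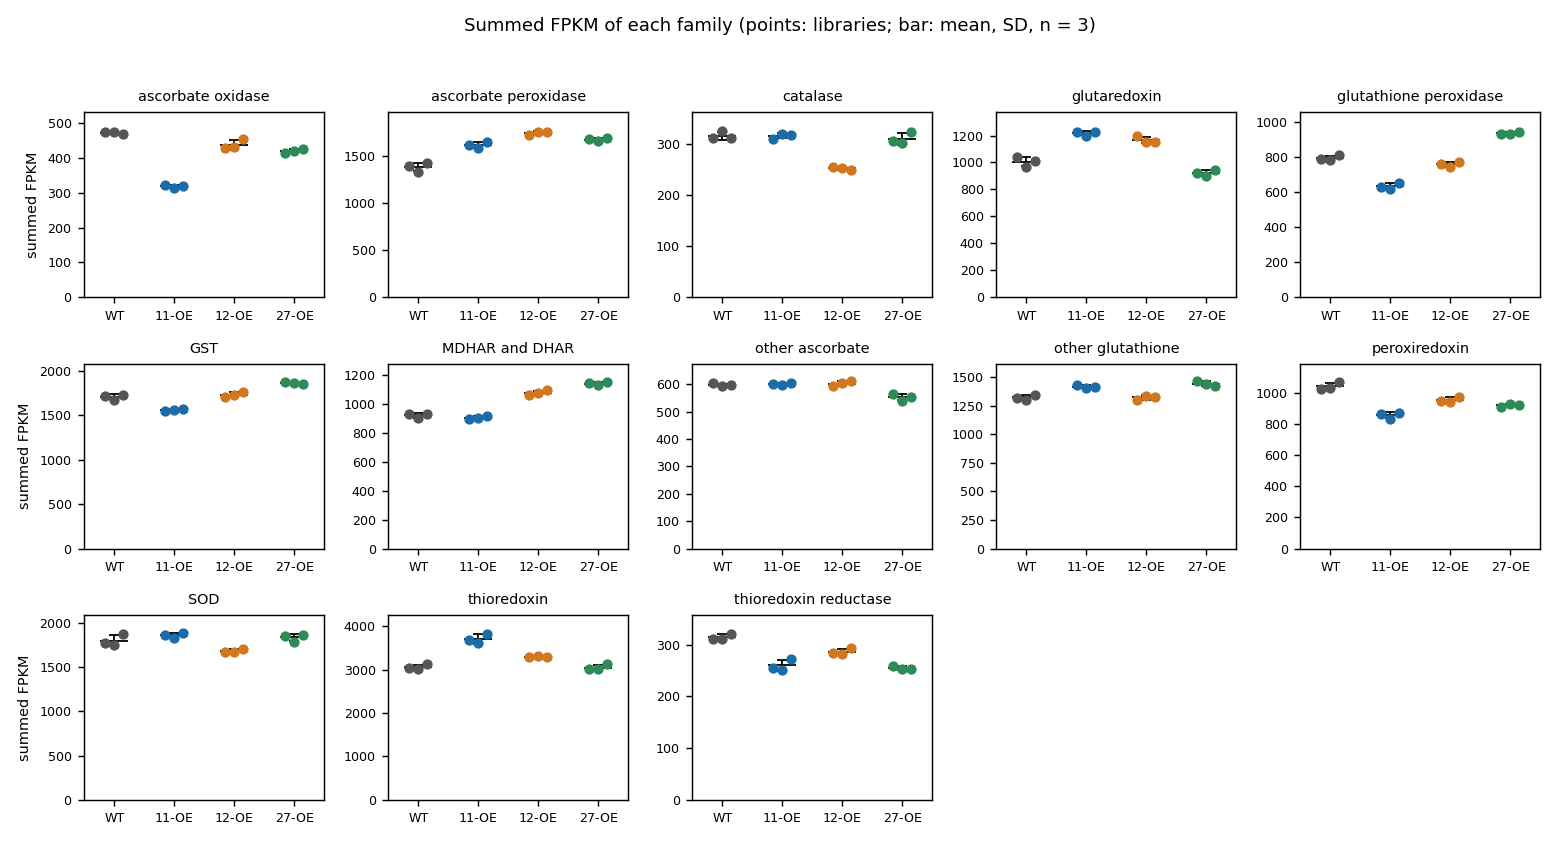
Summed FPKM of the members of each family in the 12 libraries (points), with the mean and SD of each group of 3 libraries (bar). GPX runs from VvSUC11-OE (617 to 654 FPKM) up to VvSUC27-OE (934 to 946 FPKM). The peroxiredoxin sum of WT (1029 to 1071 FPKM) lies above that of the lines. This sum leaves out gene17475, a peroxiredoxin by function that is counted with the thioredoxins, and its order holds only without that gene.

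SOD and catalase take the first steps. None of the 7 SOD genes was a DEG in any line by limma, although 4, 2 and 2 of them passed the FDR alone and 5, 3 and 7 an unadjusted p under 0.05. Cu-Zn SOD1 (gene1339), the most abundant of them, had 907, 903 and 957 FPKM in WT, 884 to 919 in VvSUC11-OE, 770 to 788 in VvSUC12-OE and 953 to 1002 FPKM in VvSUC27-OE fruits. It was lower than WT in VvSUC12-OE fruits by a small step (log2FC -0.33 ± 0.03 (SE), adjusted p = 9.5e-09, limma). Iron SOD (gene14915, mean 339 FPKM in WT and 420 in VvSUC11-OE fruits), manganese SOD of mitochondria (gene14981, 227 and 254 FPKM) and the copper chaperone that loads Cu-Zn SOD (gene20952, 54.6 and 51.9 FPKM) also stayed within 2-fold, as did the other members.

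Among the catalases, isozyme 3 (gene12110) had 74.3, 80.8 and 80.5 FPKM in WT and 37.8, 36.7 and 40.6 FPKM in VvSUC11-OE fruits. The fall (log2FC -1.04 ± 0.05, adjusted p = 7.4e-11, limma) made it a DEG, while VvSUC12-OE (66.5 to 67.8 FPKM) and VvSUC27-OE fruits (58.0 to 62.6 FPKM) lay between. Catalase 1 (gene29443), the most abundant isozyme, went the other way in VvSUC11-OE fruits, with 209 to 217 FPKM against 165 to 181 in WT (log2FC 0.35 ± 0.04), and was at 127 to 131 FPKM in VvSUC12-OE fruits (log2FC -0.41 ± 0.04). The catalase sum was therefore at WT level in VvSUC11-OE fruits (310 to 320 FPKM against 311 to 325) and lowest in VvSUC12-OE fruits (248 to 255 FPKM). A second catalase 3 gene next to it (gene12112) was also a DEG in VvSUC11-OE fruits at a mean under 20 scaled counts in both groups, and passed the filter through the WT libraries alone.

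APX uses ascorbate to reduce hydrogen peroxide, and 1 of its 9 genes was a DEG. The cytosolic APX2 gene gene21414 had 25.2, 25.2 and 27.5 FPKM in WT, 97.0, 99.2 and 102 FPKM in VvSUC11-OE, 75.4, 88.3 and 84.2 FPKM in VvSUC12-OE and 32.8, 33.6 and 34.5 FPKM in VvSUC27-OE fruits. No group overlapped another. The rise was 1.93 ± 0.05 in VvSUC11-OE (adjusted p = 1.5e-13, limma) and 1.62 ± 0.06 in VvSUC12-OE fruits (adjusted p = 8.9e-14), on the log2 scale, whereas VvSUC27-OE fruits differed from WT by 0.37 ± 0.06. The 11 heat response genes, among which cytosolic APX is often counted, summed to 296 to 315 FPKM in WT, 684 to 724 in VvSUC11-OE, 771 to 839 in VvSUC12-OE and 472 to 528 FPKM in VvSUC27-OE fruits, with 7, 7 and 4 of them up in the 3 lines, and their part in the APX2 result was not tested.

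The 2 most abundant cytosolic APX genes, which are neighbours on chromosome 6, were higher than WT in all lines by less than 2-fold. APX1 (gene14275) had 838 to 909 FPKM in WT and 1117 to 1123 FPKM in VvSUC12-OE fruits (log2FC 0.30 ± 0.02, adjusted p = 1.2e-08, limma) and gave the same log2FC of 0.30 ± 0.03 in VvSUC27-OE and 0.13 ± 0.03 in VvSUC11-OE fruits. APX2 (gene14274) had a mean of 182 FPKM in WT and 246, 264 and 269 FPKM in the lines. The 2 chloroplast entries annotated as APX6 (gene15349 and gene26471) had log2FC between -0.48 and 0.06.

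Ascorbate is recovered by MDHAR and DHAR, whose genes differed from WT in both directions. Of 6 tested, 1, 2 and 1 were higher and 2, 4 and 2 lower at the FDR alone in the 3 lines. Over all tested genes, 24.1%, 18.2% and 21.6% were higher and 28.5%, 21.3% and 22.8% lower at that FDR. The most abundant was a DHAR, gene14088. Gene14088 had 521 to 539 FPKM in WT, 559 to 570 in VvSUC11-OE, 711 to 737 in VvSUC12-OE and 788 to 792 FPKM in VvSUC27-OE fruits. The groups did not overlap, and the log2FC was 0.42 ± 0.02 in VvSUC12-OE (adjusted p = 9e-11, limma) and 0.56 ± 0.03 in VvSUC27-OE fruits (adjusted p = 9.4e-12), under the 2-fold limit. Of the MDHAR genes, gene21612 had log2FC of -0.16, -0.10 and -0.06 and gene21121 of -0.36, -0.17 and -0.51. The mean FPKM of the MDHAR gene5945 was 0.999, 0.851 and 0.987 times that of WT. A second gene annotated as dehydroascorbate reductase, gene26182, was at 0.848, 0.81 and 0.815 times the WT mean. Glutathione reductase of the chloroplast (gene23284, GR1), which makes the reduced glutathione that DHAR spends, was at 61.9 FPKM in WT and 49.7 to 58.5 FPKM in the lines. The family's DEG was a newly assembled gene annotated as DHAR1 (newGene_1065), up in VvSUC11-OE fruits from 1.00 to 1.37 FPKM in WT to 2.98 to 3.79 FPKM (log2FC 1.21 ± 0.13, adjusted p = 1.5e-06).

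Ascorbate oxidases are multicopper enzymes of the cell wall that consume ascorbate. Of the genes sorted here, only gene11004, gene27056 and gene344 are annotated as the oxidase or as oxidase-like. The others are annotated as homologs, which does not show that they act on ascorbate. Of 12 tested genes, 2, 1 and 2 were up and 4, 1 and 5 down in the 3 lines. The shares over all tested genes were 7.39%, 3.31% and 3.8% up and 7.33%, 5.3% and 7.21% down. The abundant gene27056 had 129, 128 and 124 FPKM in WT, 55.8, 51.5 and 51.9 FPKM in VvSUC11-OE, 69.3 to 73.7 FPKM in VvSUC12-OE and 55.8, 59.2 and 67.3 FPKM in VvSUC27-OE fruits. The level of gene27056 was lower in all 9 transgenic libraries, with log2FC of -1.23 ± 0.04, -0.80 ± 0.03 and -1.04 ± 0.05, and was a DEG in VvSUC11-OE and VvSUC27-OE fruits (adjusted p = 3.1e-12 and 5.5e-12, limma). Without VvSUC27-OE replicate 1 the last log2FC was -0.98, under the 2-fold limit.

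The homolog gene6281 was lowest in VvSUC27-OE fruits. It had 83.9 to 90.4 FPKM in WT, 64.4 to 74.5 in VvSUC12-OE, 37.9 to 41.0 in VvSUC11-OE and 25.1 to 26.0 FPKM in VvSUC27-OE fruits (log2FC -1.80 ± 0.04, adjusted p = 1.1e-16, limma, in the last). The homolog gene4410 was down in VvSUC27-OE fruits (log2FC -1.13) and at the 2-fold limit in VvSUC11-OE fruits (log2FC -1.01), where it fell short of the limit at -0.97 with equal totals, -0.99 with median of ratios, -0.96 on FPKM and -0.97 without VvSUC11-OE replicate 2. Down in both lines was the low gene11004 (log2FC -1.91 ± 0.23 and -2.26 ± 0.26), which VvSUC12-OE fruits kept at 1.51 to 2.18 FPKM beside 1.68 to 2.23 in WT. Gene3717 was instead down in VvSUC12-OE and VvSUC27-OE fruits, from 1.34 to 2.43 FPKM to between 0.191 and 0.340 FPKM, while VvSUC11-OE fruits had 2.41 to 2.87 FPKM. Of the ascorbate oxidases only gene344 was up in all 3 lines, with 0.483 to 0.658 FPKM in WT, 3.39 to 5.28 in VvSUC11-OE, 1.61 to 1.82 in VvSUC12-OE and 1.08 to 1.77 FPKM in VvSUC27-OE fruits (log2FC 2.91, 1.63 and 1.53). Gene12077 had 114 to 116 FPKM in WT and 190 to 195 FPKM in VvSUC27-OE fruits (log2FC 0.74 ± 0.03), short of 2-fold, and gene5388 was at 8.52 to 9.32 FPKM in WT, 4.60 to 4.89 in VvSUC11-OE and 14.7 to 17.0 FPKM in both other lines.

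Of the remaining ascorbate entries, gene16 moved furthest. This probable transmembrane electron transporter, of a class that takes electrons from ascorbate, had 11 to 14 scaled counts in WT, 89, 90 and 108 in VvSUC11-OE, 9 to 11 in VvSUC12-OE and 0, 1 and 2 in VvSUC27-OE fruits. It was up in VvSUC11-OE (log2FC 2.79 ± 0.23, adjusted p = 5.1e-08, limma) and was lower in VvSUC27-OE fruits, where it passed the filter through the WT libraries alone and the size of the difference depends on the pseudocount. A relative in name, the ascorbate ferrireductase gene7064, was at 100 to 102 FPKM in WT and 40.0 to 42.1 FPKM in VvSUC11-OE fruits (log2FC -1.33 ± 0.05, adjusted p = 3.5e-12). The nucleobase-ascorbate transporter gene3241, of a family whose studied plant members carry nucleobases, was down in VvSUC12-OE and VvSUC27-OE fruits (log2FC -2.13 ± 0.19 and -2.69 ± 0.22), whereas the abundant gene8781 stayed between 159 and 205 FPKM in all libraries.

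GPXs of plants reduce lipid and other peroxides and mostly draw their electrons from thioredoxin. None of the 7 genes was a DEG against WT by limma, although 4, 3 and 5 of them passed the FDR alone and 5 in each line an unadjusted p under 0.05. The most abundant parted the lines from each other. GPX8 (gene29163) had 327, 325 and 344 FPKM in WT, 179, 183 and 183 FPKM in VvSUC11-OE, 329 to 343 FPKM in VvSUC12-OE and 542, 523 and 512 FPKM in VvSUC27-OE fruits. VvSUC12-OE libraries overlapped those of WT, VvSUC11-OE libraries lay below (log2FC -0.91 ± 0.03, adjusted p = 7.9e-12, limma) and VvSUC27-OE libraries above (log2FC 0.66 ± 0.03, adjusted p = 1e-11). Between VvSUC27-OE and VvSUC11-OE fruits the log2FC was 1.57 ± 0.04 (adjusted p = 4.3e-16). The phospholipid hydroperoxide GPX gene16253 was lower in all lines, at a mean of 155 FPKM in WT and 85.2, 94.6 and 98.9 FPKM in the lines, and the newly assembled mitochondrial GPX3 gene (newGene_1994) was higher, at 13.9 against 31.1, 27.7 and 29.0 FPKM. Its scaled counts gave log2FC of 0.85 ± 0.24, 0.74 ± 0.18 and 0.97 ± 0.20 (adjusted p = 0.0056, 0.002 and 0.00052, limma), within 2-fold, whereas its mean FPKM was 2.24, 1.99 and 2.09 times that of WT, and on FPKM it passed the limit in VvSUC11-OE and VvSUC27-OE fruits (log2FC 1.097 and 1.009, adjusted p = 0.0021 and 0.0014), as did the scaled counts without VvSUC11-OE replicate 2 (1.149) and without VvSUC27-OE replicate 1 or WT replicate 2 (1.157 and 1.056).

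**Figure D3:**
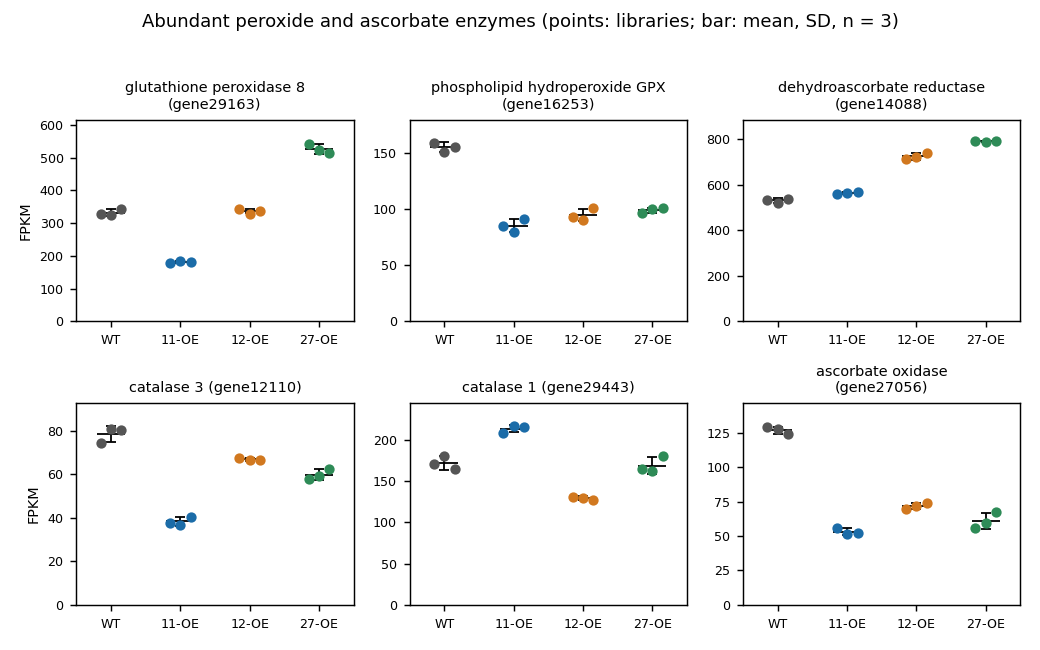
FPKM of 6 abundant members in the 12 libraries (points), with the mean and SD of each group of 3 libraries (bar). GPX8 runs from about 180 FPKM in VvSUC11-OE to above 500 FPKM in VvSUC27-OE fruits. The DHAR gene14088 is highest in VvSUC27-OE fruits (788 to 792 FPKM), and ascorbate oxidase gene27056 is highest in WT (124 to 129 FPKM).

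Peroxiredoxins, which reduce peroxides through a reactive cysteine, split into chloroplast forms and a seed form. The chloroplast 2-Cys peroxiredoxin BAS1 (gene25308) had 377 to 414 FPKM in WT, 298 to 309 in VvSUC11-OE, 330 to 343 in VvSUC12-OE and 340 to 343 FPKM in VvSUC27-OE fruits (log2FC -0.42, -0.27 and -0.20). The second 2-Cys gene (gene240), peroxiredoxin Q (gene17866) and peroxiredoxin-2E-2 (gene25368) were also lower than WT in each line, by 0.14 to 0.50 on the log2 scale, while the mitochondrial peroxiredoxin-2F (gene1482) stayed between log2FC of -0.07 and 0.01. Of the thioredoxin reductases, the catalytic chain of the ferredoxin-dependent enzyme (gene5994), which reduces chloroplast thioredoxins in the light, was lower in the lines, with a mean of 88.3 FPKM in WT and 59.7, 68.5 and 54.6 FPKM in the lines.

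Over all 30 members with chloroplast in their annotation, 29 were tested, and 17, 17 and 14 of them were lower than WT at an FDR under 0.01 in the 3 lines, against 6, 1 and 3 that were higher. These were 58.6%, 58.6% and 48.3% lower and 20.7%, 3.45% and 10.3% higher, beside 28.5%, 21.3% and 22.8% lower and 24.1%, 18.2% and 21.6% higher of all tested genes. A negative log2FC was found for 72.4%, 79.3% and 75.9% of them, beside 52.8%, 50.7% and 49.7% of all tested genes. The green tissue list had 36, 51 and 31 of its 56 tested genes lower than WT at that FDR, but parted from these members between lines. In VvSUC12-OE against VvSUC11-OE fruits 78.6% of green tissue genes were lower and 5.36% higher, beside 24.1% and 27.6% of the chloroplast members. VvSUC27-OE against VvSUC12-OE fruits had 3.57% lower and 78.6% higher, beside 20.7% in each direction. For VvSUC27-OE against VvSUC11-OE fruits the shares were nearer, 28.6% lower and 37.5% higher beside 24.1% and 34.5%. The part of green tissue in the result was not tested. The chloroplast members summed to 1652 to 1681 FPKM in VvSUC11-OE, 1712 to 1750 in VvSUC12-OE, 1684 to 1702 in VvSUC27-OE and 1898 to 1964 in WT fruits.

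The seed form was 1-Cys peroxiredoxin A (gene8208), known from barley and Arabidopsis embryos and aleurone. It had 0 scaled counts in all WT, VvSUC12-OE and VvSUC27-OE libraries and 33, 36 and 100 in VvSUC11-OE fruits, so its mean was at least 18.8-fold higher there, with the other groups taken at a floor of 3 counts per library, and at least 11.5-fold higher without the high replicate 3. It passed the filter through these 3 libraries alone, so its counts are given as a description. Seed genes were seen with it. Of 37 listed genes of seed storage, oil bodies and late embryogenesis, 17, 6 and 6 were tested in the 3 lines against WT, of which 8, 0 and 0 passed the filter through the line alone and 0, 1 and 1 through WT alone. Of those tested, 12 were up and 0 down in VvSUC11-OE fruits (1 was lower at the FDR alone), while VvSUC12-OE fruits had 1 in each direction and VvSUC27-OE fruits 3 lower and 0 higher. The genes that passed through the line alone could be called only up, and those through WT alone only down. They are therefore no support for a direction of the list. The shares over all tested genes were 7.39%, 3.31% and 3.8% up and 7.33%, 5.3% and 7.21% down. In all, 17 of the 37 had no more than 3 scaled counts in each of the 9 other libraries, among them genes of vicilin, 2S and 11S storage proteins and oleosins. In VvSUC11-OE fruits 10 of these reached 10 scaled counts in at least 1 library (7, 5 and 10 in replicates 1, 2 and 3), and the other 7 had no more than 4 in any. Of the list, 9, 3, 19 and 19 genes were at 0 in every library of WT and of the 3 lines. The 17 genes summed to 219, 211 and 558 scaled counts in VvSUC11-OE replicates 1, 2 and 3, so the same library was highest. The seed sum was 127 to 133 FPKM in WT, 120 to 183 in VvSUC11-OE, 141 to 166 in VvSUC12-OE and 47.3 to 50.6 FPKM in VvSUC27-OE fruits, and its part in the peroxiredoxin result was not tested.

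GSTs were the largest family, and their DEGs were mostly down. Of 35 tested genes, 2, 1 and 0 were up and 10, 3 and 7 down in the 3 lines by limma. In the last line 5 were higher at the FDR alone and 8 at an unadjusted p under 0.05. Of all tested genes, 7.39%, 3.31% and 3.8% were up and 7.33%, 5.3% and 7.21% down. Among the down GSTs, gene14559, gene28745 and gene29844 passed the filter through WT alone in each line. So did gene25504 in VvSUC11-OE and VvSUC27-OE fruits. These could be called only down, so they are no support for a direction of the family. The median log2FC was -0.16, -0.17 and -0.27. Many GSTs lie side by side as similar copies, between which reads may have been split, so single members are less certain than their sum. The GST sum was 1679 to 1736 FPKM in WT, 1550 to 1572 in VvSUC11-OE, 1704 to 1761 in VvSUC12-OE and 1856 to 1878 FPKM in VvSUC27-OE fruits.

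A GST 23-like gene on chromosome 1 (gene1621) had the largest fitted log2FC of all members in the 6 comparisons. It counted 157, 173 and 142 scaled counts in WT, 18, 24 and 13 in VvSUC11-OE, 1896, 2109 and 2191 in VvSUC12-OE and 41, 35 and 26 in VvSUC27-OE fruits. Every group was apart from every other. The mean was 124 FPKM in VvSUC12-OE fruits against 9.08 FPKM in WT (log2FC 3.71 ± 0.07, adjusted p = 2.7e-17, limma), and was 1.12 FPKM in VvSUC11-OE (log2FC -3.07 ± 0.23) and 2.0 FPKM in VvSUC27-OE fruits (log2FC -2.20 ± 0.19). Between VvSUC12-OE and VvSUC11-OE fruits the log2FC reached 6.78 ± 0.15. Its neighbour gene1623, with the same annotation, did not share this pattern and had 65 to 77 scaled counts in WT, 89 to 119 in VvSUC11-OE, 46 to 52 in VvSUC12-OE and 5, 12 and 15 in VvSUC27-OE fruits, where it was a DEG (log2FC -2.72 ± 0.32, adjusted p = 1.2e-06).

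Lambda class GSTs, which in plants remove glutathione from adducts rather than add it, also differed by line. GST L3 (gene21402) had 224, 229 and 240 FPKM in WT, 82.1, 79.6 and 75.6 FPKM in VvSUC11-OE, 155 to 161 FPKM in VvSUC12-OE and 432 to 443 FPKM in VvSUC27-OE fruits. The 4 groups were apart, and the member was a DEG in VvSUC11-OE fruits (log2FC -1.59 ± 0.05, adjusted p = 5.3e-13, limma) and was higher by 0.92 ± 0.03 on the log2 scale in VvSUC27-OE fruits (adjusted p = 4.7e-14). VvSUC27-OE and VvSUC11-OE fruits differed by a log2FC of 2.51 ± 0.04. The 2 L1-like genes were seen in WT alone, gene28745 with 25, 34 and 18 and gene29844 with 14, 20 and 17 scaled counts against 0 in all 9 transgenic libraries. They were at least 8.56-fold and 5.67-fold lower in each line, against a floor of 3 counts per library. The GST gene14559 had 18, 22 and 20 scaled counts in WT and 0 to 2 in each transgenic library, while its neighbour on chromosome 6 (gene14558), the most abundant GST, was at 355 to 376 FPKM in WT and 425 to 435 FPKM in VvSUC27-OE fruits (log2FC 0.21 ± 0.03).

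**Figure D4:**
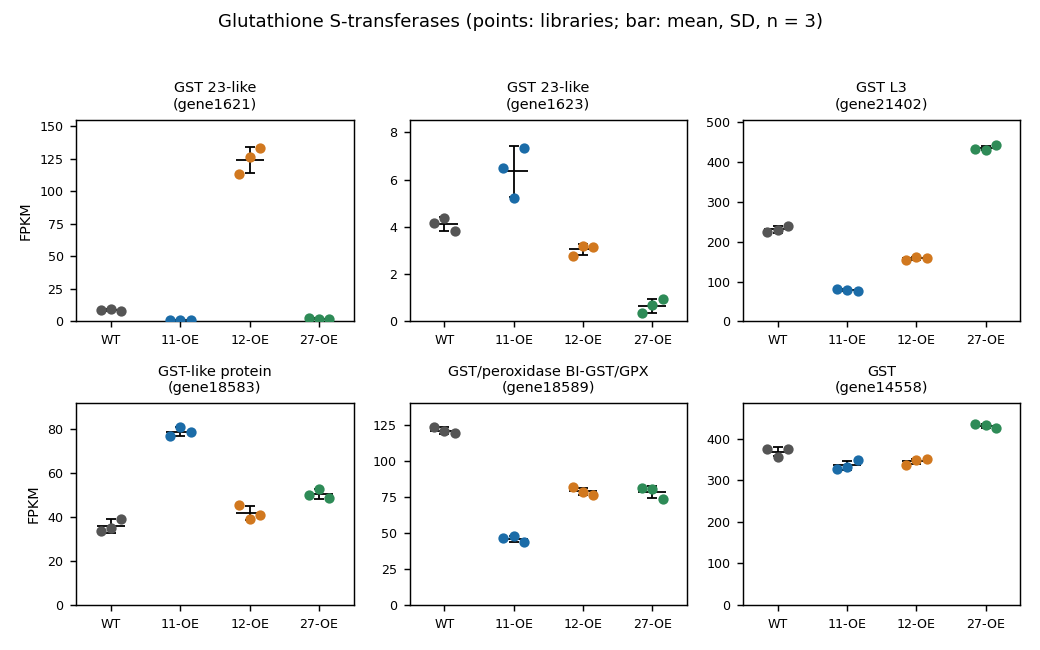
FPKM of 6 GSTs in the 12 libraries (points), with the mean and SD of each group of 3 libraries (bar). Gene1621 is at 124 FPKM in VvSUC12-OE fruits and at or below 9.08 FPKM in the other groups, while GST L3 (gene21402) is lowest in VvSUC11-OE and highest in VvSUC27-OE fruits.

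A run of 8 GST members on chromosome 7 moved in both directions in VvSUC11-OE fruits. Gene18583 rose from 33.5, 34.9 and 39.3 FPKM in WT to 76.7, 81.2 and 78.9 FPKM (log2FC 1.14 ± 0.06, adjusted p = 5.5e-10, limma) and parC (gene18584), named after an auxin-regulated gene of tobacco, from 0.711 to 1.12 FPKM to 3.15 to 3.25 FPKM (log2FC 1.81 ± 0.25). In the same run BI-GST/GPX (gene18589), annotated as transferase and peroxidase, fell from a mean of 121 to 46.1 FPKM (log2FC -1.38) and gene18586 from 13.2 to 6.37 FPKM (log2FC -1.07, which fell short of the limit at -0.965 without VvSUC11-OE replicate 2). BI-GST/GPX was also lower than WT in VvSUC12-OE and VvSUC27-OE fruits, at 79.0 and 78.4 FPKM. The sum of the run was 414 to 424 FPKM in WT and 333 to 368 FPKM in the lines. Of the 12 members of a second run, on chromosome 9, only 5 had enough counts to be tested, and that sum was 95.6 to 100 FPKM in WT and 59.7 to 90.2 FPKM in the lines. The GST U17-like gene12326 was down in VvSUC11-OE fruits alone, with 18, 7 and 4 scaled counts against 35 to 38 in WT (log2FC -2.04 ± 0.41, adjusted p = 0.00051). The zeta class GST gene2832, an enzyme of tyrosine breakdown, was at 191 to 197 FPKM in WT and 305 to 320 FPKM in VvSUC11-OE fruits (log2FC 0.70 ± 0.03).

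Of the other glutathione enzymes, none of 12 tested was a DEG in any line against WT by limma, although 5, 8 and 4 of them passed the FDR alone and 7, 8 and 9 an unadjusted p under 0.05. Glyoxalase I, annotated as lactoylglutathione lyase, uses glutathione to detoxify methylglyoxal, a by-product of sugar breakdown. Its abundant form gene5384 had 501 to 507 FPKM in WT and 509 to 571 FPKM in the lines. The lyase-like gene5727 had 133 to 167 FPKM in WT, 219 to 243 in VvSUC11-OE, 123 to 131 in VvSUC12-OE and 270 to 315 FPKM in VvSUC27-OE fruits (log2FC 0.55 ± 0.05, -0.34 ± 0.05 and 0.89 ± 0.04), and VvSUC27-OE and VvSUC12-OE fruits differed by 1.23 ± 0.04 (adjusted p = 1.5e-14, limma). S-formylglutathione hydrolase (gene10350), of formaldehyde detoxification, stayed between 190 and 215 FPKM in all libraries.

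Among 42 tested thioredoxins, 5, 1 and 0 were up and 1, 1 and 4 down in the 3 lines by limma, and in the last of them 8 were higher at the FDR alone and 10 at an unadjusted p under 0.05. The shares over all tested genes were 7.39%, 3.31% and 3.8% up and 7.33%, 5.3% and 7.21% down. Of the 5 that rose in VvSUC11-OE fruits, 3 are neighbouring H-type genes on chromosome 5, which encode thioredoxins outside the chloroplast. Thioredoxin H4 (gene12342) had 5.81, 7.07 and 7.12 FPKM in WT, 69.7, 70.4 and 83.9 FPKM in VvSUC11-OE, 32.6, 32.8 and 33.0 FPKM in VvSUC12-OE and 11.7, 12.3 and 13.1 FPKM in VvSUC27-OE fruits. No libraries of different groups overlapped. The log2FC was 3.38 ± 0.11 (adjusted p = 2.3e-12, limma), 2.17 ± 0.13 (adjusted p = 9.7e-11) and 0.86 ± 0.16 (adjusted p = 0.00016). The H2-like gene12343 followed the same order at a higher level, with 88.3 to 94.8 FPKM in WT, 295 to 360 in VvSUC11-OE, 188 to 195 in VvSUC12-OE and 108 to 143 FPKM in VvSUC27-OE fruits, and gene12341 had means of 48.9, 108, 74.7 and 77.4 FPKM. With libraries brought to equal totals or on FPKM, the log2FC of gene12343 in VvSUC12-OE fruits passed 1 (1.01 and 1.07 against 0.97).

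The falls in VvSUC27-OE fruits lay among thioredoxin-like proteins. Gene28484 (thioredoxin-like 1-1) had 38.9 to 41.3 FPKM in WT, 44.4 to 49.6 in VvSUC11-OE, 29.1 to 30.2 in VvSUC12-OE and 15.8 to 16.8 FPKM in VvSUC27-OE fruits (log2FC -1.30 ± 0.06, adjusted p = 1.4e-12, limma). Gene25012 (thioredoxin-like 3-1) had 49.2 to 52.9 FPKM in WT and 17.1 to 18.1 FPKM in VvSUC27-OE fruits (log2FC -1.52 ± 0.07). Gene8955 (thioredoxin-like 1-2) was lower in all lines, at 53.4 to 56.9 FPKM in WT and 17.6 to 31.1 FPKM in the 9 transgenic libraries. As a DEG, gene8955 fell in VvSUC27-OE (log2FC -1.34 ± 0.10) and VvSUC11-OE fruits, and its log2FC of -1.01 in the latter fell short of the limit with other scaling, at -0.97 with equal totals, and without VvSUC11-OE replicate 1 or WT replicate 3, at -0.97 and -0.98. The annotations place these 3 in the chloroplast. The most abundant cytosolic form, thioredoxin H-type 1 (gene11955), was at 354 to 373 FPKM in WT and 441 to 450 FPKM in VvSUC11-OE fruits.

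Of 18 tested glutaredoxins, 6, 4 and 3 were up and 1, 2 and 2 down in the 3 lines. Of all tested genes, 7.39%, 3.31% and 3.8% were up and 7.33%, 5.3% and 7.21% down. The median log2FC of the family was near 0, at -0.002, 0.078 and 0.087. Gene22775, up in each line, passed the filter through the line alone. The DEGs annotated C6, C9, C13 and S3 carry names of the plant-specific CC-type class, whose Arabidopsis members bind TGA transcription factors. Glutaredoxin-C13-like gene14525 had 12.2, 12.9 and 12.4 FPKM in WT, 74.5, 70.5 and 76.2 FPKM in VvSUC11-OE, 32.7, 33.1 and 34.7 FPKM in VvSUC12-OE and 13.2, 14.9 and 18.9 FPKM in VvSUC27-OE fruits (log2FC 2.52 ± 0.07, 1.38 ± 0.08 and 0.32 ± 0.12). The C6-like gene27460 rose from 36.3 to 47.1 FPKM in WT to 196 to 226 FPKM in VvSUC11-OE and 131 to 144 FPKM in VvSUC12-OE fruits, with 55.4 to 74.2 FPKM in VvSUC27-OE fruits, and the C6-like gene20043 from 20.7 to 22.6 FPKM to 104 to 118 and 49.2 to 56.4 FPKM, with 32.7 to 38.3 FPKM. For all 3 the limma adjusted p was at most 1.3e-09 in VvSUC11-OE and VvSUC12-OE fruits.

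These 3 glutaredoxins belonged to a group of 7 members whose libraries were fully separated in the order VvSUC11-OE, VvSUC12-OE, VvSUC27-OE and WT from high to low, with cytosolic APX2 gene21414, thioredoxins gene12342 and gene12343, and the nucleobase-ascorbate transporter gene11815. They made up 3.89% of the 180 members with enough counts, and 1.05% of all genes showed that order. All orders together gave 32 separated members, 17.8% against 12.4% of all genes. The order was picked after the values were seen, and gene12342 and gene12343 are neighbours, so these shares are a description.

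**Figure D5:**
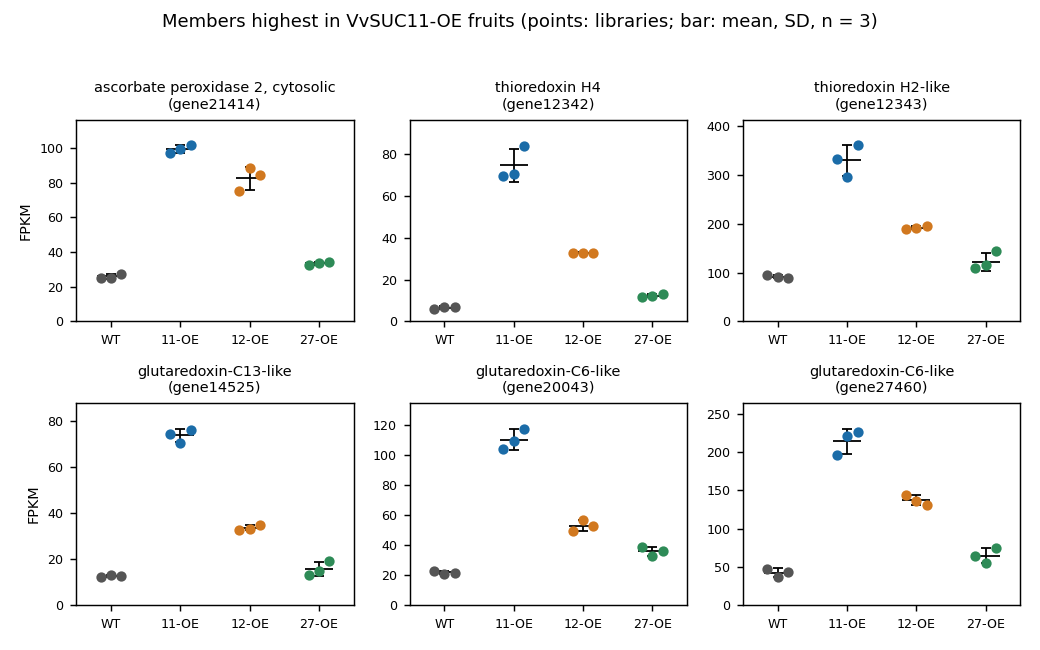
FPKM of 6 of the 7 members in the 12 libraries (points), with the mean and SD of each group of 3 libraries (bar). In each panel all VvSUC11-OE points lie above all VvSUC12-OE points, these above all VvSUC27-OE points and these above all WT points.

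Other glutaredoxins had their own patterns. The C13-like gene22775 was highest in VvSUC27-OE fruits, with 50 to 61 scaled counts there, 17 to 20 in VvSUC11-OE, 15, 22 and 39 in VvSUC12-OE and 5 to 8 in WT (log2FC 1.33, 1.70 and 2.90). Its call in VvSUC11-OE fruits (adjusted p = 0.004, limma) was lost when any WT replicate was left out, at adjusted p of 0.017, 0.011 and 0.033. The glutaredoxin-domain gene21220 had 110 to 143 scaled counts in WT, 288 to 304 in VvSUC11-OE, 35, 66 and 53 in VvSUC12-OE and 261 to 293 in VvSUC27-OE fruits (log2FC 1.26 ± 0.12, -1.30 ± 0.20 and 1.14 ± 0.12), apart from WT in each line and up in some lines and down in another. The C9-like gene18321 was down in VvSUC27-OE fruits, at 10.5 to 11.6 FPKM against 29.7 to 33.5 in WT (log2FC -1.55 ± 0.10), and in VvSUC12-OE fruits (log2FC -1.09 ± 0.12, which was -0.99 without replicate 2 of that line), and the C9-like gene23856 was down in VvSUC11-OE and VvSUC27-OE fruits (log2FC -2.09 ± 0.33 and -3.12 ± 0.33). The monothiol S3 gene gene1314 rose from 1.59 to 2.29 FPKM to 8.26 to 12.8 FPKM in VvSUC11-OE fruits (log2FC 2.27 ± 0.29), and its call in VvSUC27-OE fruits (log2FC 1.20 ± 0.31) was lost without VvSUC27-OE replicate 2 or 3, or WT replicate 1 or 3, at adjusted p of 0.023, 0.014, 0.011 and 0.027. The most abundant glutaredoxin, gene14285, stayed between 235 and 407 FPKM, and gene5531 had log2FC of -0.04, -0.01 and -0.01 against WT.

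The lines were also compared with each other. VvSUC12-OE against VvSUC11-OE fruits gave 23 member DEGs of 175 tested, 8 up and 15 down (13.1% beside 10.2% of all genes, 4.74% up and 5.51% down). VvSUC27-OE against VvSUC11-OE fruits gave 29 of 174, 9 up and 20 down (16.7% beside 10.7%, 3.67% up and 6.99% down), and VvSUC27-OE against VvSUC12-OE fruits 15 of 171, 6 up and 9 down (8.77% beside 6.8%, 2.64% up and 4.16% down). Between VvSUC27-OE and VvSUC11-OE fruits 0 thioredoxins were DEGs up in VvSUC27-OE and 6 down by limma (6 were higher at the FDR alone and 8 at an unadjusted p under 0.05). Glutaredoxins had 1 DEG up and 5 down, with 4 higher and 6 lower at the FDR alone and a median log2FC of 0. GSTs had 4 DEGs up and 2 down, with 8 higher and 11 lower at the FDR alone and a median log2FC of -0.10. Thioredoxin H4 differed by -2.52 ± 0.09, APX2 gene21414 by -1.56 ± 0.05 and ascorbate ferrireductase gene7064 by 1.09 ± 0.06 on the log2 scale. Catalase 3, with a log2FC of 0.66 ± 0.05, and SOD1, with 0.12 ± 0.03, stayed within 2-fold.

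Genes of the pathways that supply these enzymes, and related redox genes, were counted as well. Of all tested genes, 14.7%, 8.6% and 11% were DEGs in the 3 lines. Of 18 tested genes of glutathione and ascorbate synthesis, 1 was down in each line and 1 was up in VvSUC27-OE fruits, and their summed FPKM was 860 to 895 in WT and 888 to 1056 in the lines. None of the 10 genes of NADPH supply was a DEG against WT by limma, although 4, 4 and 5 of them passed an FDR under 0.01. Other redox proteins, such as metallothioneins, ferritins and germin-like proteins, had 4 up and 4 down of 29, 2 and 2 of 28, and 2 and 2 of 28 tested. Their sum was 15342 to 15767 FPKM in VvSUC11-OE, 10230 to 10380 in VvSUC12-OE, 7961 to 8663 in VvSUC27-OE and 7515 to 7984 FPKM in WT. In the KEGG glutathione pathway 48 members were tested, with 3 up and 10 down, 2 up and 3 down, and 0 up and 7 down in the 3 lines, and the pathway's other genes had 1 up and 1 down, 0 up and 1 down, and 3 up and 0 down.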

How the data were processed

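RNA of 12 libraries was sequenced by the authors, who mapped the reads with TopHat2. Per the file headers, they deposited FPKM and counts per gene. The deposited counts had already been brought to a common size and rounded, so they are a score and not read numbers, called scaled counts here. FPKM was used for levels and for comparing genes. The authors' own EBSeq comparisons, with their FDR and fold changes, fill 18 columns that were not used.

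Members were found by words of the deposited annotation and sorted into families by the first matching word. Members and lists were chosen with earlier results of these data known. The lines were compared with the WT and each other by limma 3.58.1 in R 4.3.3, using lmFit and then eBayes with a trend on log2(scaled count + 1). Only the 6 libraries compared entered a fit, and a gene needed 10 or more scaled counts in 3 of them. DEGs had an FDR under 0.01 (Benjamini-Hochberg, all tested genes) and an absolute log2FC above 1. The fold understates changes of low genes. The study calls the libraries independent biological replicates, and the replicate numbers did not pair the samples. It does not state whether the 3 libraries of a line came from different plants. Against a group at 0, folds are bounds against 3 counts per library. The fit was tested on simulated data.

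Named were members called in small families, the 3 most abundant and the up to 3 largest non-overlapping calls per direction of each larger family, members called in all lines, and the largest calls between lines, if their mean reached 20 scaled counts in a group. Gene neighbours and other small-family members were added after their values were seen. Gene order was checked on 6942 genes matched by KEGG identifier to RefSeq, where 99.5% of next pairs shared a chromosome, and 143 members matched. Sequences and positions were not analysed here. Alternatives changed the scaling, pseudocount, filter, values, libraries and block.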

Additional observations from a re-analysis of the deposited data

How the results depend on the processing

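The counts of member DEGs depended most on the filter on low counts. When a gene needed a mean of 50 scaled counts, the lines had 24, 10 and 12 member DEGs against WT, and VvSUC27-OE against VvSUC12-OE fruits had 9, since fewer genes were tested. Leaving out 1 library gave 30 to 35, 13 to 15 and 18 to 24 member DEGs against WT, 20 to 23 for VvSUC12-OE against VvSUC11-OE, 26 to 30 for VvSUC27-OE against VvSUC11-OE and 12 to 16 for VvSUC27-OE against VvSUC12-OE fruits. A gene with counts in 1 group alone, such as gene8208, could not be tested without 1 of its libraries. The 8 members down in VvSUC12-OE fruits were 5 without any 1 WT replicate, and the 5 up in VvSUC27-OE fruits were 2 without replicate 2 or 3 of that line and 1 with the mean of 50. Equal totals, median of ratios, a pseudocount of 10, no filter, FPKM and a fit of all 12 libraries kept each of the 6 counts within 1.5 times. Same-numbered libraries correlated at -0.079 to 0.082 in their deviations, so the numbers do not pair them, and with the replicate number as a block the counts were 37, 16 and 25 against WT and 23, 29 and 15 between lines. No named member turned direction in a comparison where it was called, over 336 comparisons of 59 members, while 51 of their alternative values lost a call and 20 gained one.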
